A study of Oryza sativa with 8 samples.

Results

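Broad anti-MYC peaks from the ChIP-seq of OsChz1 in rice (Oryza sativa) seedlings are described here, namely the peaks of the line COM1 that are 800 bp or wider. They were chosen by their measured width, as the end minus the start of each listed region, and 571 of the 11356 COM1 peaks met this rule (5.03%). The other 10785 peaks served as the comparison. The COM1 plants carry a MYC-tagged OsChz1 under the OsChz1 promoter in the oschz1 mutant background (genotype OsChz1-MYC/oschz1) and are 1 transgenic line. The control was the oschz1 mutant, a CRISPR/Cas9 knockout allele (oschz1-1) without any tagged protein, so that the antibody shows its background there. Both genotypes were whole seedlings of 30 days, many pooled per sample, grown with 14 h of light (30 °C) a day and nights of 10 h (28 °C). Each genotype had 2 anti-MYC ChIP libraries and 2 input libraries made without antibody, which gave 8 libraries in 4 groups.

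The data were 3 lists of regions on the MSU7 assembly of Nipponbare rice. One held the COM1 peaks, another 170 oschz1-1 peaks, and the last 4865 regions that the authors called higher in COM1 than in oschz1-1, named differential regions below. The study takes the differential regions, not the COM1 list, as occupied by OsChz1. The lists hold no reads, so neither the tag nor the loss of OsChz1 could be checked in them. The lists give a single set of regions per genotype and name no replicate, so no value below has an error between replicates and these lists allow no test over samples. Signal tracks of the single libraries were not analysed here. No height, enrichment or read number accompanied a region in the lists. Per the study's reporting summary, both oschz1-1 ChIP libraries were shallower than both COM1 ChIP libraries, and the part of depth in the widths and in the length of the lists was not tested. Intervals in parentheses are 95% intervals (Wilson for shares, Newcombe for differences of shares, order statistics for medians). For differences of medians, the distances of both medians to their limits were combined as the root of the summed squares. All these intervals cover counting error over peaks only. Since neighboring peaks of the same libraries are not independent, the intervals are likely too narrow. In whole seedlings, the number of cells with OsChz1 at a region and the amount of OsChz1 per cell cannot be told apart.

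OsChz1 has a CHZ domain, the domain of the yeast protein Chz1, which is a chaperone of the histone variant H2A.Z. Histone chaperones escort histones outside the nucleosome and help to deposit or remove them. A histone chaperone reads no DNA motif of its own as a transcription factor does. Whether its ChIP signal reaches over neighboring nucleosomes was not tested here. The width of a called peak depends on the depth of the library and on the settings of the peak caller.

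The broad peaks lay at the far end of a continuous range of widths. Their median was 951 bp, their quartiles were 870 and 1113 bp, and the widest reached 2751 bp, whereas the peaks under 800 bp had a median of 307 bp. They made up 5.03% of the peaks but 13.4% of the covered length, which was 0.585 Mb of 4.36 Mb. Nothing set the limit of 800 bp apart. There were 5 peaks of exactly 800 bp, 3 of which lay on chromosome 1 from 21756669 to 21757468, on chromosome 4 from 4924531 to 4925330 and on chromosome 12 from 7178152 to 7178951. Just outside were a peak of 799 bp on chromosome 1 from 39506663 to 39507461 and peaks of 798 bp on chromosome 4 from 997767 to 998564 and on chromosome 5 from 14030588 to 14031385. Of these 6 peaks on either side of the limit, the 2 on chromosome 4 were not in the differential list and the other 4 were. Most of the members were near the limit, with 189 peaks of 800 to 899 bp, 150 of 900 to 999 bp and 232 of 1000 bp or more, of which 25 reached 1500 bp.

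**Figure D1:**
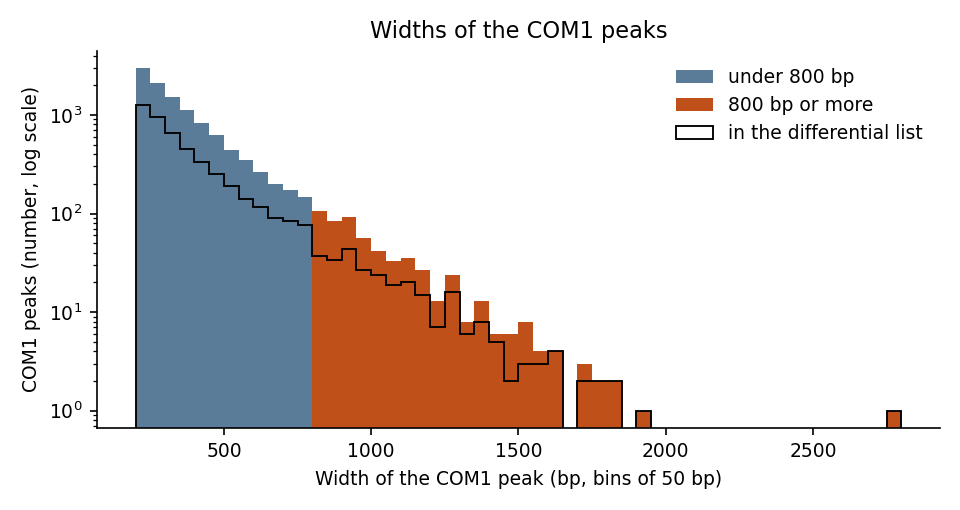
Number of COM1 peaks (log axis) by width in bins of 50 bp, with peaks under 800 bp in blue, broad peaks in orange, and the peaks in the differential list as a black outline. The counts decline without a break at 800 bp, and the outline comes closer to the full count among the widest peaks.

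To find out whether broad peaks belong to the OsChz1 signal that is higher in COM1 than in the mutant, the broad peaks were intersected with the differential regions. Of the 571 broad peaks, 282 were differential (49.4%, 45.3 to 53.5%), compared with 4583 of the 10785 peaks under 800 bp (42.5%, 41.6 to 43.4%). Over all COM1 peaks the share was 42.8%. The other 289 broad peaks lay outside the differential list. The difference of 6.89 percentage points (2.70 to 11.1) was larger than the counting error. All 282 had exactly the borders of the differential region, and they accounted for 5.80% of the differential regions and 15.7% of their length. The 4865 differential regions met 4865 COM1 peaks of any width by at least 1 bp, so an overlap as such was not particular to the broad peaks. Identical borders were not counted for the narrower peaks. The differential list was made from the same COM1 libraries that set the widths, so that it is not independent of the rule.

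The differential share was not the same among the broad peaks themselves. From 800 to 899 bp, 71 of 189 peaks were differential (37.6%, 31.0 to 44.7%), and from 900 to 999 bp it was 71 of 150 (47.3%, 39.5 to 55.3%). The share was then 56.9% of 137 peaks from 1000 to 1199 bp, 62.9% of 70 peaks from 1200 to 1499 bp and 72.0% of 25 peaks of 1500 bp or more (52.4 to 85.7%). Peaks just under the limit, from 700 to 799 bp, stood at 49.4% (159 of 322), above the first class of broad peaks. Thus the excess of the broad peaks came from those of 1000 bp or more, of which 140 of 232 were differential (60.3%, 53.9 to 66.4%). Among those of 800 to 999 bp the share was 41.9% (142 of 339), and the difference from the peaks under 800 bp was -0.61 points (-5.82 to 4.79). The members of 1000 bp or more exceeded the narrower members by 18.5 points (10.1 to 26.4). The split at 1000 bp was chosen after these classes had been seen.

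**Figure D2:**
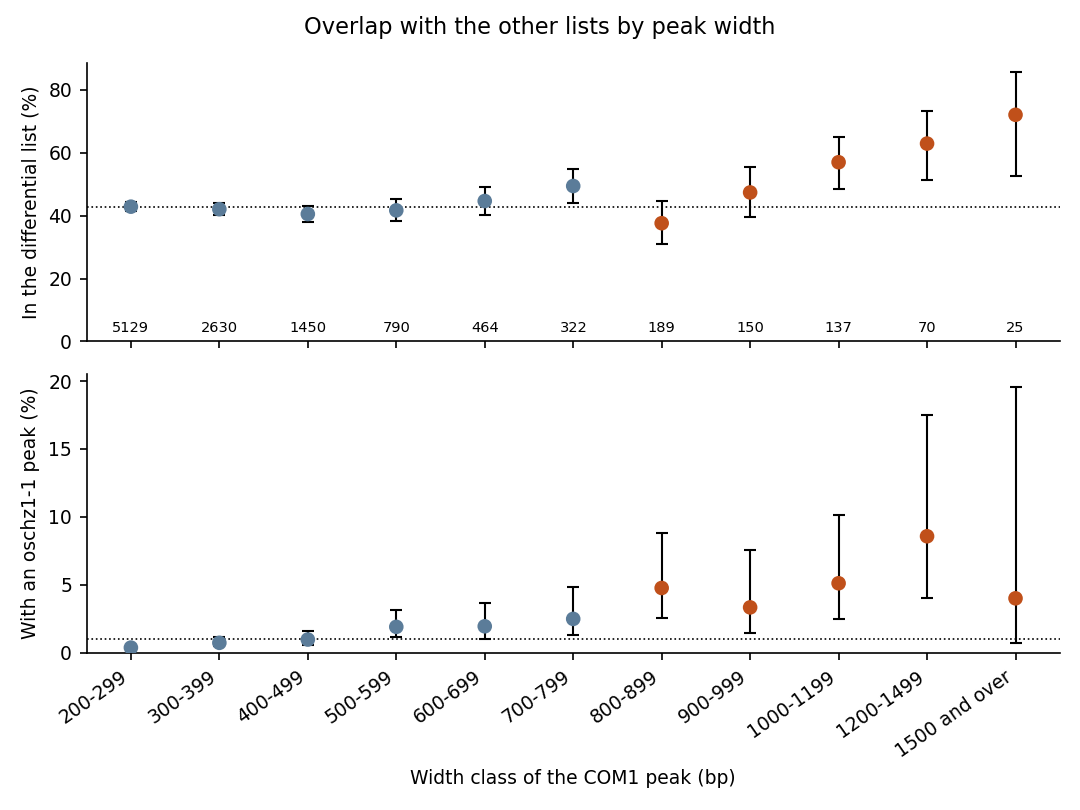
Share of COM1 peaks that were in the differential list (top) and that overlapped an oschz1-1 peak (bottom) by width class, in %, with 95% Wilson intervals, classes of broad peaks in orange and the number of peaks of each class above the axis. Dotted lines give the share over all COM1 peaks, 42.8% and 0.986%. The differential share falls to 37.6% at 800 to 899 bp and reaches 72.0% at 1500 bp and more, while the oschz1-1 share rises from 0.370% at 200 to 299 bp and is above the dotted line in each class from 500 bp, broad or not.

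The excess of differential broad peaks was found on 9 of the 12 chromosomes. It ranged from 3.20 points on chromosome 4 to 18.6 points on chromosome 10, where 21 of 34 broad peaks were differential (61.8%). On chromosomes 6, 7 and 9 the broad peaks were lower, with differences of -4.69, -5.17 and -6.72 points and 21 of 56, 12 of 33 and 11 of 29 broad peaks differential. With 29 to 85 broad peaks per chromosome, the intervals of single chromosomes were wide. Restricted to the members of 1000 bp or more, the share exceeded that of the peaks under 800 bp on 12 of 12 chromosomes, and for the members of 800 to 999 bp it did so on 7. These counts divide the same peaks from which the split at 1000 bp was chosen, so they are no separate support for it.

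**Figure D3:**
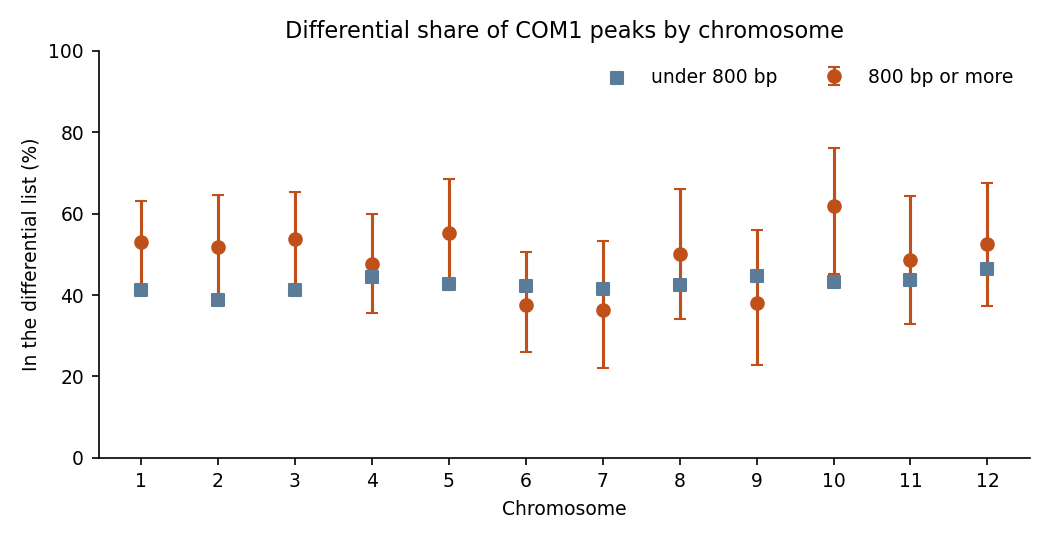
Share of COM1 peaks in the differential list (%) on each of the 12 chromosomes, for broad peaks (orange circles with 95% Wilson intervals) and peaks under 800 bp (blue squares). The orange circles lie above the blue squares on 9 chromosomes and below them on chromosomes 6, 7 and 9.

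The difference was also computed within subsets of the peaks. It was above 0 in each one described here, but the interval of 1 of them included 0. Among peaks without an oschz1-1 peak, 51.4% of 543 broad peaks and 42.8% of 10701 narrower peaks were differential, a difference of 8.58 points (4.28 to 12.9). Among the 28 broad and 84 narrower peaks with an oschz1-1 peak it was 7.14 points, with an interval that included 0 (-2.35 to 23.8). It was 7.74 points (1.31 to 14.1) among peaks with no other COM1 peak within 5 kb, 239 of them broad, and 6.70 points (1.20 to 12.2) among peaks with one. Each chromosome was taken to span up to the end of its last listed COM1 peak. In the outer 10% of this span at either end the difference was 10.0 points (1.47 to 18.6), and in the rest it was 6.08 points (1.30 to 10.9).

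Of the 10 widest members, 9 were in the differential list, compared with 42.8% of all COM1 peaks. None of the 10 overlapped an oschz1-1 peak, but only 4.90% of broad peaks and 0.986% of all COM1 peaks did. So few peaks do not set the widest apart in this respect, and 1 of the 25 peaks of 1500 bp or more overlapped one. Their surroundings differed widely. The widest, of 2751 bp on chromosome 3 from 2495937 to 2498687, had its nearest COM1 peak 15345 bp away, and that neighbor was itself the broad peak of 1640 bp from 2514033 to 2515672. A further pair of broad peaks of 1374 and 1229 bp lay at 2466574 to 2467947 and 2471560 to 2472788. These 4 broad peaks lay within 49.1 kb and covered 6994 bp of it, and 3 of the 4 were differential, all but the one of 1229 bp. The peak of 1918 bp on chromosome 8 from 15643784 to 15645701 had another COM1 peak at only 393 bp, but the next broad peak was 622768 bp away. On chromosome 10, the peak of 1829 bp from 9138187 to 9140015 stood 44159 bp from any other COM1 peak.

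Of the remaining widest members, the peak of 1842 bp on chromosome 6 from 24555616 to 24557457 was 7415 bp from the next COM1 peak, and that of 1777 bp on chromosome 1 from 29188831 to 29190607 was 4120 bp from it. A peak of 1770 bp on chromosome 7 from 29130540 to 29132309 was isolated by 48350 bp, and one of 1640 bp on chromosome 1 from 42579388 to 42581027 by 46911 bp. These last 2 lay close to the end of the span, which is that of the last listed COM1 peak, at 1.62 and 1.48% of the span. The peak of 1728 bp on chromosome 2 from 35848045 to 35849772 was closer still, at 0.0757% of the span. A peak of 1732 bp on chromosome 3 from 21701490 to 21703221 had 8 other COM1 peaks with a centre within 50 kb. The only one of the 10 outside the differential list was the peak of 1738 bp on chromosome 6 from 25789557 to 25791294, whose nearest COM1 peak, at 2709 bp, was broad as well and not differential either.

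To determine whether broad peaks stand alone or in company, the distance to the nearest other COM1 peak was measured from edge to edge. Broad peaks were closer to their neighbors, at a median of 3642 bp (3087 to 4245) compared with 6319 bp (6078 to 6600) for peaks under 800 bp. The difference of medians was -2677 bp (-3299 to -2028). Another COM1 peak was found within 5 kb of 332 broad peaks (58.1%, 54.1 to 62.1%) and of 4832 narrower peaks (44.8%, 43.9 to 45.7%), which is 13.3 points more (9.15 to 17.4). The share was higher for broad peaks on 11 of the 12 chromosomes, the exception being chromosome 9 with 41.4 and 44.2%. Broad peaks of 1000 bp or more and those of 800 to 999 bp had nearly equal shares, with 58.2 and 58.1%, a difference of 0.08 points (-8.15 to 8.22). The share did not set in at 800 bp. It was 41.8% at 200 to 299 bp, 50.5, 51.5 and 50.9% in the classes from 500, 600 and 700 bp, 51.9% at 800 to 899 bp (44.8 to 58.9%) and 66.0% from 900 bp to under 1000 bp (58.1 to 73.1%). The narrowest broad peaks were thus close to the widest of the others.

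Of the broad peaks, 76 had a COM1 peak within 5 kb on both sides (13.3%, compared with 8.09% of the narrower peaks), 256 on one side (44.8%, compared with 36.7%) and 239 on neither (41.9%, compared with 55.2%). The number of peaks around them differed in its upper quartile. A median of 4 other COM1 peaks had their centre within 50 kb of the centre in both sets, while the upper quartile was 7 for broad and 5 for narrower peaks. At the other extreme, the most isolated broad peak, of 877 bp on chromosome 4 from 18426551 to 18427427, was 124713 bp from the next COM1 peak, and it was differential.

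Another broad peak was also nearer to broad peaks than to the narrower peaks as a whole. The nearest other broad peak was at a median of 174722 bp (134038 to 206298) from a broad peak and of 227700 bp (220821 to 234885) from a peak under 800 bp. Within 10 kb, another broad peak was found for 76 of 571 broad peaks (13.3%, 10.8 to 16.3%) and for 692 narrower peaks (6.42%, 5.97 to 6.89%), a difference of 6.89 points (4.31 to 9.96). Broad peaks had 1 broad peak fewer to meet, since their own was left out. The share was 17.2% for members of 1000 bp or more and 10.6% for those of 800 to 999 bp, a difference of 6.62 points (0.92 to 12.7). By width class, the share was 5.46% at 200 to 299 bp, 11.4% at 600 to 699 bp, 9.94% at 700 to 799 bp and 8.99% at 800 to 899 bp, so that the narrowest broad peaks were not above the classes next to them. From 1000 to 1199 bp it was 19.0%, and for the 25 peaks of 1500 bp or more it was 1 peak. Taken over all broad peaks, it was higher than for narrower peaks on 10 of the 12 chromosomes. On chromosome 8, 0 of 34 broad peaks had another within 10 kb, and on chromosome 10 the share was 5.88%, compared with 6.44% of the narrower peaks.

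**Figure D4:**
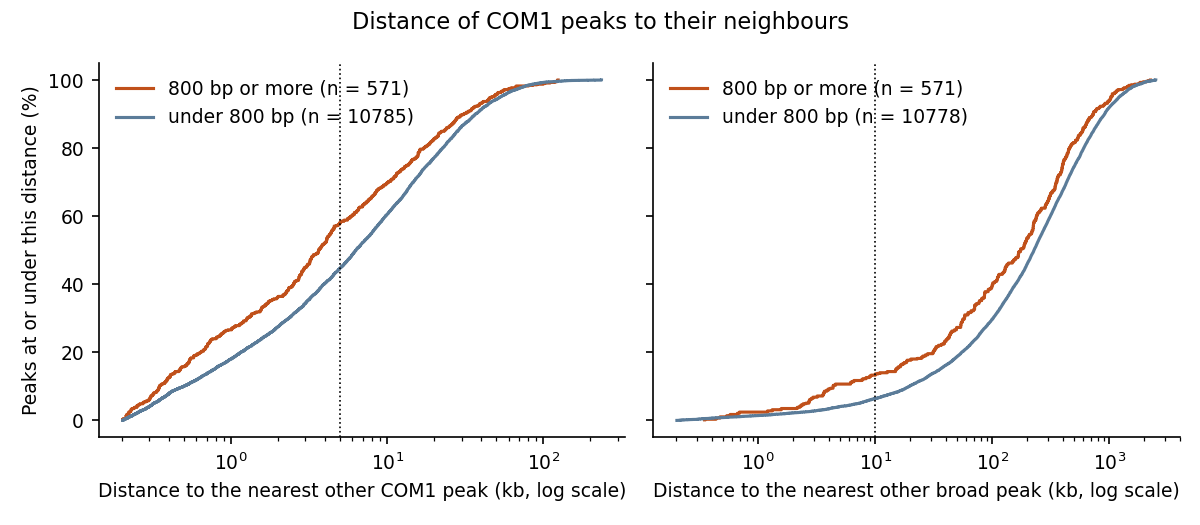
Cumulative share of COM1 peaks (%) by the distance from edge to edge (kb, log axis) to the nearest other COM1 peak (left, 5 kb dotted) and to the nearest other broad peak (right, 10 kb dotted), for broad peaks in orange and peaks under 800 bp in blue. The orange lines run above the blue ones at both limits, with 58.1 and 44.8% at 5 kb on the left and 13.3 and 6.42% at 10 kb on the right.

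Most broad peaks were separated from the next broad peak by narrower ones. Only 5.03% of the COM1 peaks were broad, so this alone does not show that broad peaks stand apart. The nearest COM1 peak was broad for 51 of 571 broad peaks (8.93%, 6.86 to 11.6%). For the narrower peaks it was broad in 521 of 10785 cases (4.83%, 4.44 to 5.25%). Of the 571 members, 492 had no broad peak as the next COM1 peak on either side. The others formed 29 pairs and 7 runs of 3 consecutive broad peaks. The closest pair was on chromosome 3, where peaks of 1106 and 802 bp from 7068210 to 7069315 and from 7069664 to 7070465 were 348 bp apart and only the second was differential. The smallest gap between any COM1 peaks was 202 bp. Of the 559 gaps between a broad peak and the next broad peak along a chromosome, 42 were of 10 kb or less and 7 of 1 kb or less. The widest gap was on chromosome 4, where 5028150 bp from the peak ending at 5598041 to that starting at 10626192 held 137 COM1 peaks and no broad one.

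Of the 7 runs of 3, 2 were on chromosome 1. One began at 8018478 and ended at 8028844, and its middle peak of 1123 bp, from 8023840 to 8024962, overlapped an oschz1-1 peak. The other extended from 34085308 to 34095862, with its first and last peaks differential. On chromosome 11, peaks of 1038, 893 and 888 bp between 3708660 and 3716456 were spaced by 2425 and 2553 bp, and 0 of the 3 was differential. The run on chromosome 6 from 5703819 to 5713757 held peaks of 1028, 1313 and 829 bp, of which the middle one, the widest, was differential. On chromosome 5, from 22966090 to 22979723, the first 2 peaks of the run were differential and the last overlapped an oschz1-1 peak. The runs on chromosome 2 (25007421 to 25054942) and chromosome 3 (2471560 to 2515672, which contains the widest peak) were looser, with gaps of 43612 and 23148 bp between their first 2 peaks.

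The differential status of neighboring broad peaks was compared, given that 49.4% of all broad peaks and 42.5% of the narrower peaks were differential. Among the 42 neighbors with a gap of 10 kb or less, 10 had both peaks differential, 11 had neither and 21 had one, which gives 50% with the same status (35.5 to 64.5%). Among the 517 farther apart it was 48.9% (44.7 to 53.2%). With a differential share near 50%, peaks of unrelated status would also match in about 50% of cases. The status of a broad peak and of its nearest COM1 peak of any width was the same in 47.9% of the 332 cases within 5 kb (42.6 to 53.3%), compared with 53.1% of 4832 for peaks under 800 bp (51.7 to 54.5%). Broad and narrower peaks also differ in their differential shares, which by itself shifts the share that match. These counts hold some neighbors in both directions. The nearest peak was differential for 59 of 160 differential broad peaks (36.9%) and for 72 of 172 that were not (41.9%), a difference of -4.99 points (-15.3 to 5.50) that was within the counting error. The neighbors were mostly narrow, with a median width of 380 bp.

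The mutant control was then examined at the broad peaks. Of the 571 broad peaks, 28 overlapped an oschz1-1 peak by at least 1 bp (4.90%, 3.41 to 6.996%), compared with 84 of 10785 narrower peaks (0.779%, 0.630 to 0.963%) and 0.986% of all COM1 peaks. The difference was 4.12 points (2.62 to 6.22). The share increased with width below 800 bp too, from 0.370% at 200 to 299 bp to 1.899% at 500 to 599 bp, 1.94% at 600 to 699 bp and 2.48% at 700 to 799 bp (1.26 to 4.83%), and it was 4.76% at 800 to 899 bp (2.53 to 8.80%). These 28 met 28 different oschz1-1 peaks, which is 16.5% of the mutant list. A wide region meets more by its length alone. Per covered length the values were 47.9 and 22.3 COM1 peaks with an overlap per Mb. When every peak was replaced by a window of the median COM1 width around its centre, the shares were 2.98 and 0.779%. Counting also oschz1-1 peaks within 5 kb, the shares were 6.83% (39 peaks) and 1.82% (196 peaks). With a list of 170 oschz1-1 peaks, a background signal below the peak threshold was not detectable.

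The oschz1-1 peaks were small within the broad ones. Their median width was 279.5 bp, 22 of the 28 lay wholly inside the broad peak, and they covered a median of 25.04% of it (range 5.998 to 56.0%). Of these 28 broad peaks, 3 were differential (10.7%, 3.71 to 27.2%), compared with 49.4% of all broad peaks, 42.8% of all COM1 peaks and 3 of the 84 narrower peaks with an oschz1-1 peak (3.57%, 1.22 to 9.98%). The differential regions were called against oschz1-1, so that the pair of measures is not independent. Those 3 were the peak of 1528 bp on chromosome 8 from 14487957 to 14489484, that of 1277 bp on chromosome 5 from 23783812 to 23785088 and that of 1195 bp on chromosome 6 from 10874079 to 10875273. In them the oschz1-1 peak covered 13.9, 24.0 and 30.1% of the broad peak. The largest coverage was on chromosome 9, where an oschz1-1 peak of 533 bp took 56.0% of the broad peak of 951 bp from 9579764 to 9580714, and the centres were 17 bp apart.

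Of the other broad peaks with an oschz1-1 peak, the widest was that of 1481 bp on chromosome 11 from 4428724 to 4430204, with 13 other COM1 peaks within 50 kb. The next, of 1304 bp on chromosome 7 from 23493430 to 23494733, was met at its edge, with 7.98% of it covered. On chromosome 1, the peak of 1259 bp from 41394830 to 41396088 was 539 bp from another broad peak. On chromosome 4, the peak of 1238 bp from 35499879 to 35501116 was the last COM1 peak of the chromosome, and that of 1139 bp from 25383652 to 25384790 was 21.3% covered. The peaks of 1238 bp on chromosome 5 from 19638721 to 19639958 and of 1145 bp on chromosome 7 from 18765763 to 18766907 were 17.3 and 21.8% covered. The 28 were spread over 11 of the 12 chromosomes, and chromosome 2 had none. Altogether 264 broad peaks were neither differential nor shared with the mutant list (46.2%, 42.2 to 50.3%), compared with 56.8% of the narrower peaks.

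Broad peaks were found on all 12 chromosomes, and 0 of the 7 COM1 peaks on the additional sequence ChrSy was broad. Per chromosome, the broad share of the COM1 peaks ranged from 3.76% on chromosome 7 (33 of 878, 2.69 to 5.23%) to 5.98% on chromosome 1 (85 of 1422, 4.86 to 7.33%). No interval was computed for the difference between chromosomes. Chromosomes 1, 6, 3, 5, 4, 2 and 12 were above 5.03%, and chromosomes 10, 8, 11, 9 and 7 below. Relative to the length spanned by peaks, there were 1.11 broad peaks per Mb on chromosome 7 and 1.97 on chromosome 1, with 1.53 over the whole span of 372.7 Mb.

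Along the chromosomes, the position of broad peaks relative to the ends of the span was compared. Of the 571, 135 had their centre in the outer 10% of the span at either end (23.6%, 20.3 to 27.3%), compared with 20.0% of the narrower peaks on the 12 chromosomes, a difference of 3.68 points (0.29 to 7.41) that barely exceeded the counting error. It was no longer larger than the counting error without chromosome 2 (-0.55 to 6.89), 4 (-0.71 to 6.70) or 6 (-0.21 to 7.25), or with broad peaks taken from 1000 bp (-0.24 to 10.9). At the start of the numbering the excess was 2.44 points (67 broad peaks, 11.7 and 9.30%) and at the end 1.24 points (68 broad peaks, 11.9 and 10.7%), and the interval of each included 0. The share was higher than that of the narrower peaks on 10 of 12 chromosomes and lower on chromosomes 5 (14.9 and 21.3%) and 7 (15.2 and 21.3%). The median distance to the nearer end was 22.6% of the span for broad and 24.9% for narrower peaks, and the interval of this difference (-4.67 to 0.96 points) included 0. The broad share of COM1 peaks was 6.52% in the outermost 5% of the span (5.23 to 8.09%) and 4.05 to 5.83% in the classes farther inside.

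**Figure D5:**
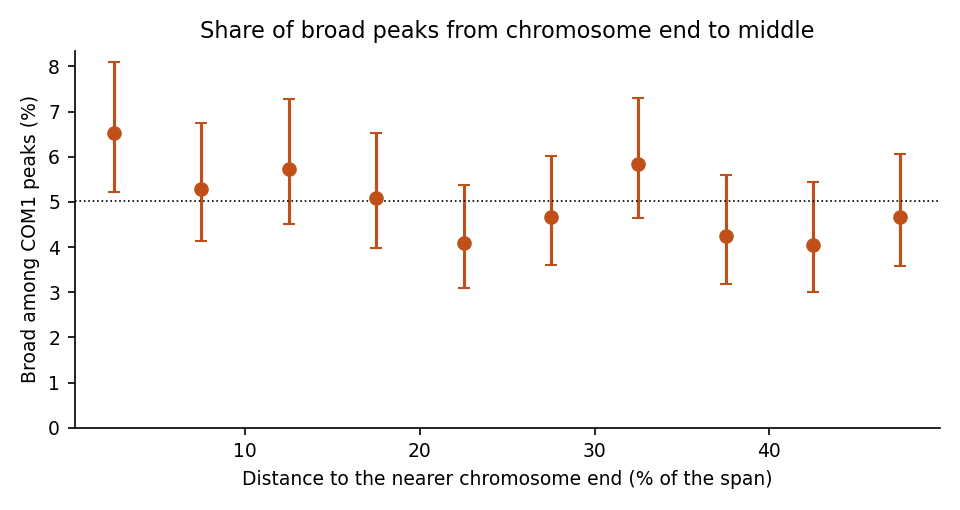
Broad peaks as a share of all COM1 peaks (%) in 10 classes of distance to the nearer end of the span, with 95% Wilson intervals and the share of all peaks (5.03%) as a dotted line. Distances are in % of the span, which runs to the end of the last listed COM1 peak. The outermost class, at 6.52%, is the highest and the only one whose interval lies above the dotted line, and the values farther in scatter around it.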

How the data were processed

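Anti-MYC ChIP and input libraries of COM1 and oschz1-1 seedlings were used, 2 of each. As the study's methods state, reads were trimmed with CUTADAPT and aligned by the authors to MSU7 with Bowtie2, pairs of low mapping quality and PCR duplicates were removed with Samtools, and peaks were called against input. The methods name SICER with a window of 200 bp, whereas the labels and the study's results text name MACS2. Of the widths of the COM1 peaks, 0.282% were multiples of 200 bp. Replicates were intersected with ChIPpeakAnno and genotypes compared with DiffBind, per the methods. The deposited lists hold 3 columns (chromosome, start, end), and the unit is bp. The order of the differential list is not explained in the sources used here.

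Widths, overlaps of at least 1 bp, distances from edge to edge, and positions relative to the last listed peak end were obtained in scipy 1.17.1, pandas 2.3.3 and numpy 2.4.6 under Python 3.11.15 (plots in matplotlib), and checked on simulated lists. Positions are printed counted from 1. Shares have 95% Wilson intervals, and no p-value is given, because 1 list per genotype allows no test over samples. Named regions were the 10 widest, 3 on each side of 800 bp, 10 with an oschz1-1 peak, the longest runs, the closest pair and the most isolated peak. Others were named after their values were seen. The members and measures were chosen with earlier results of these data known. Genes and sequence at the peaks were not analysed here, as the annotation used here is on another assembly.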

Additional observations from a re-analysis of the deposited data

How the results depend on the processing

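For 8 results, 124 alternatives were computed, 84 of which left out 1 chromosome and kept most of the peaks. Such alternatives could hardly move a value out of its interval. Asking for 50% of the COM1 peak to be covered could not change the differential share of the broad peaks, whose borders are those of the differential regions. Of the 124, 114 moved the value by less than its interval (counts by less than 1.5 times). This held for all 84 that left out 1 chromosome, where the excess of broad over narrower peaks in the differential share ranged from 6.08 to 8.16 points, within 5 kb of a COM1 peak from 12.4 to 14.2 and in the outer 10% of the span from 2.80 to 4.57, where the interval included 0 without chromosome 2, 4 or 6 and from 1000 bp. The differential excess depended on the limit, at 17.9 points from 1000 bp and -0.61 points for 800 to under 1000 bp, the latter chosen after seeing the data. For another broad peak within 10 kb it was 4.20 points at 800 to under 1000 bp. From 1000 bp, the median distance to the nearest other broad peak differed by -15759 bp (-163654 to 142384), so that this difference was within the counting error. The excess of peaks with a COM1 neighbor was 8.57 points within 1 kb and 5.52 points within 20 kb. With windows of the median width, the excess of oschz1-1 overlaps was 2.20 points. The number of broad peaks was 1357 from 600 bp, 232 from 1000 bp and 1349 when peaks within 1 kb were joined, of which 786 held no single peak of 800 bp. No paired analysis was possible because each genotype has 1 list that names no replicate, and no replicate could be left out. No peak height was used, which limits all values to the presence and borders of peaks.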

Other observations

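The differential list is not sorted along the chromosomes, unlike the COM1 list, and what orders it is not given in the sources used here. The broad peaks were unevenly spread over this order. Of the first 20 regions, 14 were broad, compared with 5.80% of the whole list. When the list was divided in its order into 10 parts of 487 or 486 regions, broad peaks numbered 63 in the first (12.9%, 10.2 to 16.2%) and between 14 and 25 in each of the second to the seventh. In the last 3 parts they numbered 38, 32 and 35. The division was chosen after the order had been seen. The median width of the regions was 514 bp in the first part, 359 bp in the second, which held the fewest broad peaks (14), 269 bp in the sixth and 323 bp in the last. The widest peak, of 2751 bp on chromosome 3, was at place 20, that of 1829 bp on chromosome 10 at place 3, and that of 1777 bp on chromosome 1 at place 2872.

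Joining COM1 peaks within 1 kb gave 10230 regions, of which 563 held a broad peak, and 144 of these 563 held at least 1 further COM1 peak. The widest joined region reached 6622 bp, and the largest number of peaks joined was 7.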
